A study of Mus musculus with 6 samples.

Results

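The genes described here are 10 factors of the primitive streak and the nascent mesoderm: T (Entrez Gene 20997), Eomes (13813), Mixl1 (27217), Evx1 (14028), Lhx1 (16869), Gsc (14836), Nkx1-2 (20231), Mesp1 (17292), Sp8 (320145) and Grsf1 (231413). They were chosen by name, and each had 1 row among the 24975 genes of the deposited count table. RNA was sequenced from mesoderm cells of mouse embryos at embryonic day 7.5, with 1000 sorted cells in each of 6 libraries. Every embryo was heterozygous for Mesp1-Cre. Embryos of the 3 control libraries were also heterozygous for the reporter R26-tdTomato and were sorted on tdTomato, and those of the 3 Gli3R libraries were heterozygous for R26-Gli3R-IRES-Venus in its place and were sorted on Venus, per the notes in the deposited table. Gli3R, the repressor form of the Gli3 protein, blocks transcription driven by Hedgehog signals, and the comparison asks which mesodermal transcripts depend on that pathway. Embryos were pooled with their littermates, and control and Gli3R replicates of the same number came from the same litter. Reporter, sort colour and transgene differed together in every litter, so an effect of Gli3R cannot be told apart from one of the reporter or the gate.

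The primitive streak is the region of the gastrulating embryo where epiblast cells leave the epithelium and become mesoderm and endoderm. Nodal, WNT and FGF signals induce T-box and homeobox genes in the streak. Cells then leave it, switch many of these genes off and switch on genes of emerging mesoderm, of which Mesp1 is among the earliest. T (Brachyury) and Eomes encode T-box factors, and T is needed for posterior mesoderm and the notochord. Mixl1, Evx1, Lhx1, Gsc and Nkx1-2 encode homeobox factors; Mixl1 and Evx1 mark the streak, Lhx1 and Gsc are known from its anterior end and the organizer, and Nkx1-2 from the late streak and the progenitors beside it. Mesp1 encodes a basic helix-loop-helix factor of cells leaving the streak, and Sp8 a zinc finger factor. Grsf1 encodes a protein that binds G-rich RNA, not a transcription factor. Mesp1-Cre marks cells that have expressed Mesp1 and their descendants, so cells that never did lie outside the labelled lineage. As general knowledge of the commonly used Mesp1-Cre strain and not from the labels, Cre is placed in the Mesp1 gene itself. Both groups carry the driver, and reads of Mesp1 can then come only from the intact allele where the inserted allele lacks the counted sequence.

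The promoters of T and Mesp1 are shown because T differed most between the groups among the members tested and Mesp1 drives the Cre that defines the cells. The windows hold the 250 bases before the annotated start, 5′ to 3′ on the strand of the gene, from RefSeq on build GRCm38.p6. The deposited counts were made on another build, mm9, so these positions describe the sequence only. T lies on the plus strand at chr17:8434173-8434422, and Mesp1 on the minus strand at chr7:79793591-79793840. Capitals mark matches on either strand to CTTTGA, the core of a TCF/LEF site, and to AGGTGT, the core of a T-box site; the motifs do not overlap each other in either window.
T: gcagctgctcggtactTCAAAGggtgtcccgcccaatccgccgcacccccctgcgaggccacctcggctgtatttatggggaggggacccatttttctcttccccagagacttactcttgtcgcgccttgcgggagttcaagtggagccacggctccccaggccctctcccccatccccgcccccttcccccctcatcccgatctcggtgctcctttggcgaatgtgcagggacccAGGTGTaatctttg
Mesp1: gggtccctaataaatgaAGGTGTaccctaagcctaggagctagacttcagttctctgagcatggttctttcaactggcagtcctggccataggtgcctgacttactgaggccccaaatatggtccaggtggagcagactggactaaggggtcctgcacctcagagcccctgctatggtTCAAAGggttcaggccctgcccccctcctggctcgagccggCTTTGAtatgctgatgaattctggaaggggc

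The T window held the TCF/LEF letters beginning 234 bases and the T-box letters beginning 14 bases before the start. In the Mesp1 window the TCF/LEF letters began 72 and 31 bases and the T-box letters 233 bases before it. Of the members, 9 had a window in the RefSeq table, with 12 windows in all because some genes have several starts. The TCF/LEF letters were found for 3 of these 9 genes (T, Mesp1 and Sp8) and the T-box letters for 3 (T, Mesp1 and Evx1). Over 32851 promoter windows of the same length, 13.8% held CTTTGA and 11.8% held AGGTGT. The Gli-type letters TGGGTGGTC and the Foxh1-type letters AATNCACA were found for 0 of the 9, against 0.225% and 3.18% of all windows. A match describes the letters and is not a binding site.

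Library totals ran from 5481190 counts (control replicate 1) to 12635151 (Gli3R replicate 1). Levels are given as CPM, the count of a gene relative to the library total after TMM scaling. A single read was worth 0.0775 to 0.185 CPM. A count of 0 allows up to 3 reads, which were worth 0.232 to 0.555 CPM. Control replicate 1 stood apart on principal component 1, which held 35.0% of the variance, where it lay at -39.8 and the other 5 libraries between -2.25 and 19.2. For Gli3, part of which the transgene carries, the control libraries of litters 1, 2 and 3 held 25.7, 29.5 and 34.3 CPM and their Gli3R littermates 43.6, 38.9 and 50.8 CPM. Its log2 fold change of 0.57 ± 0.15 (SE) missed the threshold of 0.05 (adjusted p = 0.313 by edgeR's quasi-likelihood test, Benjamini-Hochberg over all genes). All 19 genes of a list of emerging mesoderm markers were expressed enough to be tested, among them Pdgfra, a receptor gene of mesoderm, at 53.2 to 68.6 CPM over the 6 libraries.

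Levels can be set between genes only per length of transcript, here as CPM per kilobase of exon in the GENCODE M21 annotation, which is not the annotation of the deposited counts. In control libraries the order by mean was Grsf1 at 40.8 ± 6.11 (SD, n = 3, as for all that follow), Mesp1 at 12.9 ± 6.71, T at 11.05 ± 9.08, Mixl1 at 4.53 ± 2.51 and Evx1 at 2.90 ± 1.63 CPM per kilobase. Nkx1-2 followed at 1.51 ± 0.29, Lhx1 at 0.65 ± 0.51, Gsc at 0.55 ± 0.08, Eomes at 0.45 ± 0.27 and Sp8 at 0.37 ± 0.27 CPM per kilobase. Of the 9 pairs of neighbours in this order, 2 had control ranges that did not overlap. Grsf1 stood apart from Mesp1 (lowest control 36.8 against highest control 19.7 CPM per kilobase), while Nkx1-2 and Lhx1 only just parted (1.24 for both on rounding). The control ranges of the other 7 neighbouring pairs overlapped. Within each control library T still stood above Mixl1 and Mixl1 above Evx1. In control replicates 1, 2 and 3 T was at 21.3, 7.98 and 3.90, Mixl1 at 7.43, 3.18 and 2.98 and Evx1 at 4.76, 1.70 and 2.24 CPM per kilobase. The remaining overlapping pairs changed order between control libraries.

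**Figure D1:**
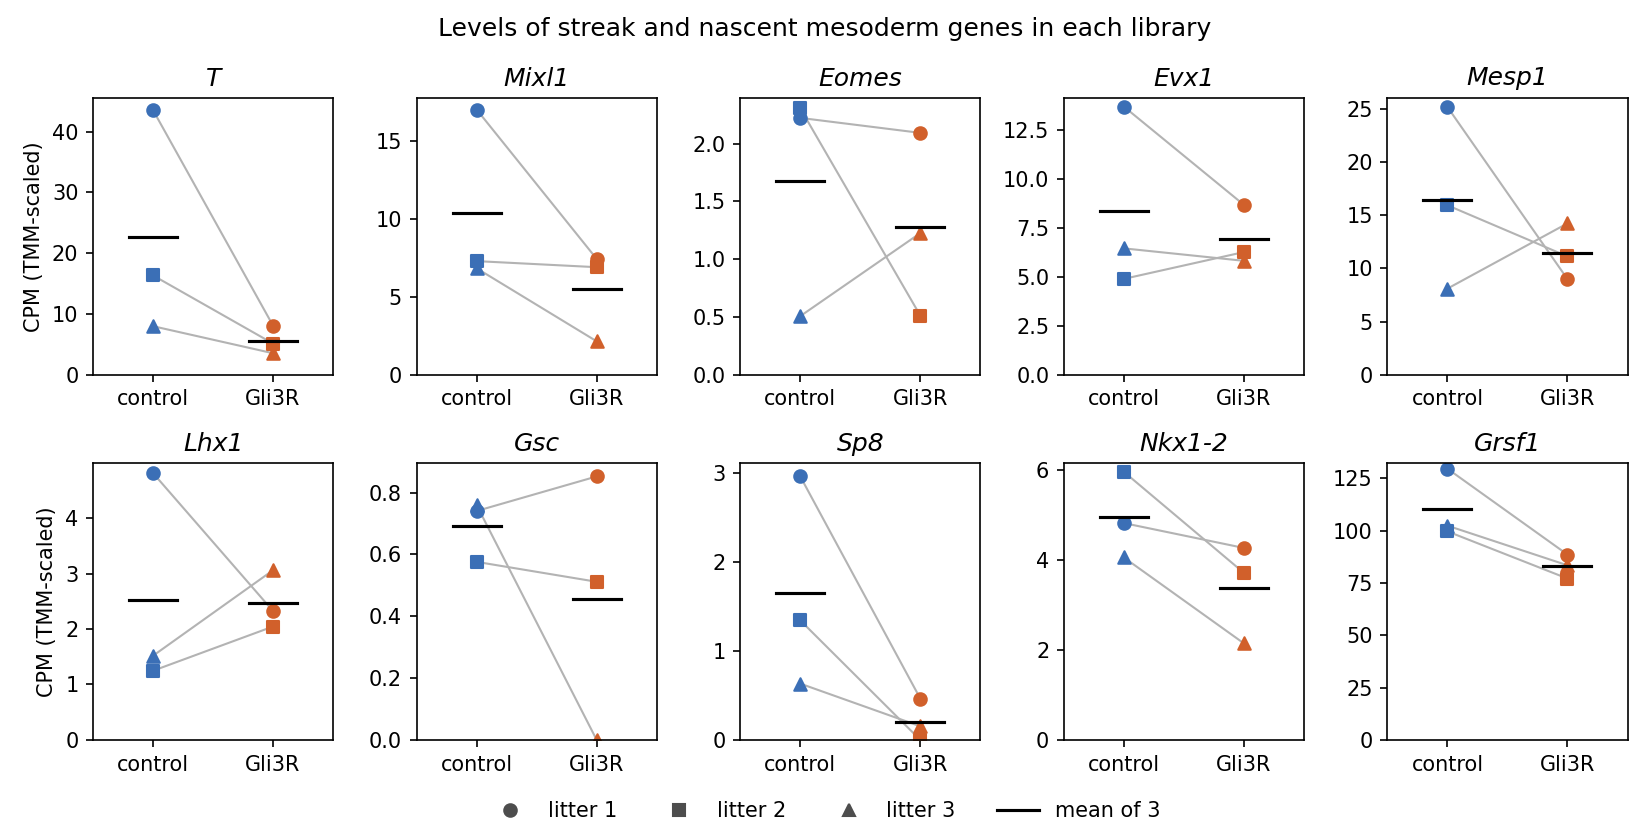
Level of each of the 10 genes (y axis, TMM-scaled CPM, a separate scale per gene) in the control and Gli3R libraries (x axis); symbols give the litter, grey lines join libraries of a litter and black bars are means of 3. T runs from 43.5 CPM in control replicate 1 to 3.52 CPM in Gli3R replicate 3, and the lines of Mesp1, Lhx1, Eomes and Evx1 do not all slope the same way.

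T was lower with Gli3R in every litter, and it was the member with the largest difference among those tested. T measured 43.5, 16.3 and 7.97 CPM in the controls of litters 1, 2 and 3 and 8.06, 5.12 and 3.52 CPM in their Gli3R littermates. The controls spanned a wide range, and the lowest control lay just under the highest Gli3R library, so the groups overlapped by that pair of libraries. Within litters 1, 2 and 3, T was 5.40-fold (95% interval 4.27 to 6.87), 3.19-fold (2.25 to 4.62) and 2.26-fold (1.38 to 3.83) lower; these exact intervals cover counting error only, since amplified copies count as reads. At least 2-fold lower levels were seen in 3.07%, 2.26% and 2.33% of all 11913 tested genes in litters 1, 2 and 3. In these bulk libraries, fewer cells that express a gene and less of its RNA per cell cannot be told apart.

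Group means of T were 22.6 ± 18.6 CPM for the controls and 5.57 ± 2.30 CPM for the Gli3R libraries (SD, n = 3), a log2 fold change of -1.93 ± 0.55 (SE). It did not pass over all genes tested without a litter term (adjusted p = 0.402 by edgeR's quasi-likelihood test). With litter as a block T fell, by 1.89 ± 0.24 on the log2 scale (adjusted p = 0.0373 in the same test). Without a litter term, 0.0252% of tested genes were called higher and 0.109% lower; with the block these shares were 0.0755% and 0.151%. T was the 1 member called with the block and 0 members were called without it, where T and Grsf1 had an unadjusted p under 0.05, as did 6.86% of all tested genes. DESeq2 called 0 members as well, against 0.361% of all genes higher and 0.428% lower.

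The size of the T difference rested in part on control replicate 1. Without that library the log2 fold change was -1.08 ± 0.36 (SE; edgeR quasi-likelihood adjusted p = 0.469, with 0.0165% of genes called higher and 0.132% lower). Without both libraries of litter 1 it was -1.49 ± 0.36 (adjusted p = 0.173 by the same test, with 0.0419% of genes called higher and 0.185% lower). With litter as a block and litter 1 left out, T was again called lower, at -1.47 ± 0.27 (edgeR adjusted p = 0.00273). That fit of 4 libraries called 1.03% of genes higher and 0.822% lower. Few libraries were left there to estimate the spread of each gene, so p-values of that fit lean on spread shared across genes. When genes with low counts were kept in, T was called lower too, at -1.91 ± 0.37 (edgeR adjusted p = 0.0106 over 18719 genes, with 0.262% of genes higher and 0.315% lower). T was below 0 in all 14 alternative fits, between -2.34 and -1.08, with adjusted p from 0.00273 to 0.807 over the edgeR and DESeq2 fits.

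**Figure D2:**
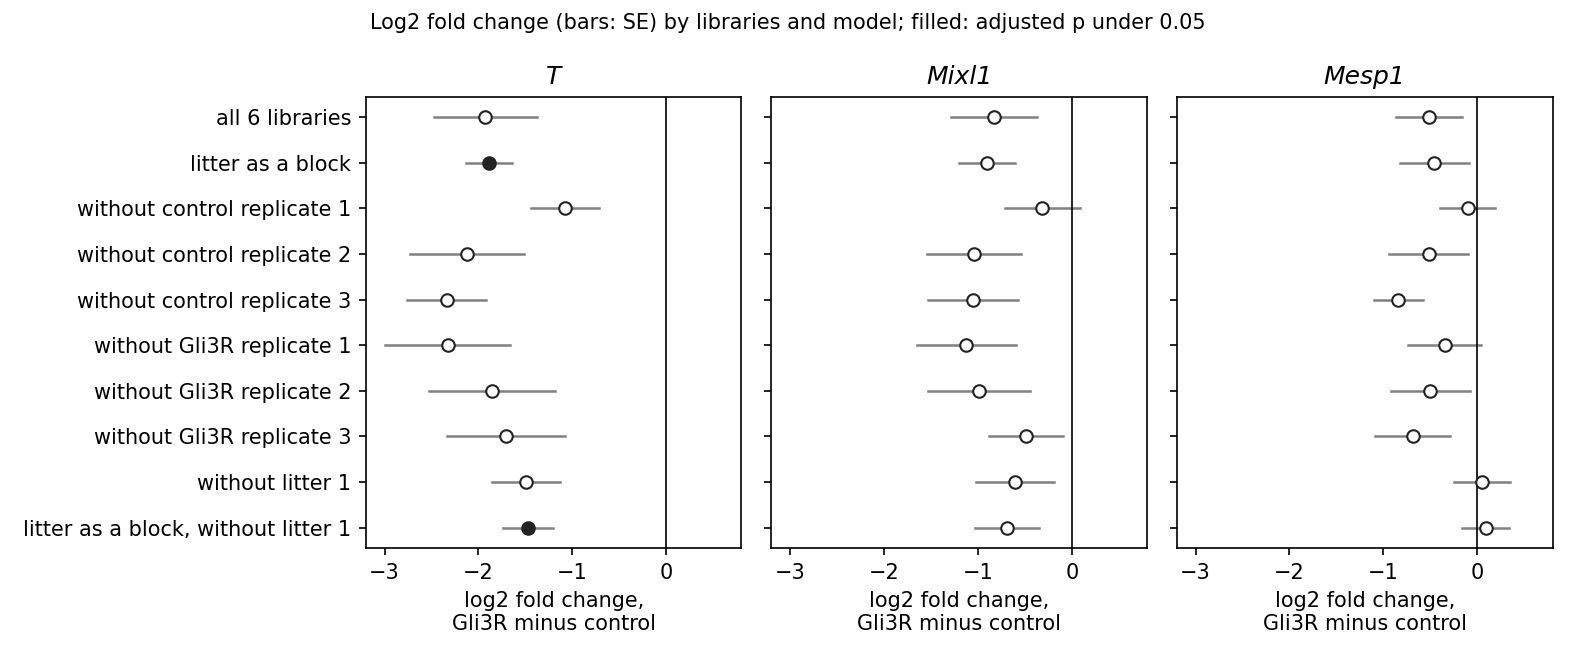
Log2 fold change of T, Mixl1 and Mesp1 (x axis, Gli3R minus control; bars are SE) by the libraries used and the litter term (y axis); filled points have an edgeR adjusted p under 0.05. T stays between -2.34 and -1.08 and is filled in the fits with litter as a block, while Mesp1 moves from -0.51 to 0.051 when litter 1 is left out.

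Eomes, the other T-box gene, was sparse, with 12, 24 and 4 reads in control replicates 1, 2 and 3 and 27, 4 and 8 in the Gli3R replicates. In CPM these were 2.22, 2.30 and 0.51 against 2.09, 0.51 and 1.22. The litters disagreed: Eomes was level in litter 1, 4.50-fold lower (95% counting interval 1.55 to 17.9) in litter 2 and at a ratio of 2.42 (0.648 to 10.98) in litter 3. Its log2 fold change of -0.30 ± 0.60 (SE; edgeR adjusted p = 0.996) turned positive without control replicate 2 (0.10) or Gli3R replicate 2 (0.046).

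Among the homeobox genes of the streak, Mixl1 was lower with Gli3R in all 3 litters but did not pass the test. Its control libraries of litters 1, 2 and 3 held 17.0, 7.30 and 6.83 CPM and their Gli3R littermates 7.44, 6.91 and 2.14 CPM. The highest Gli3R library lay above both lower controls, so the groups overlapped. Within litters the difference was 2.29-fold in litter 1 and 3.19-fold in litter 3, against 1.06-fold in litter 2 (95% counting interval 0.736 to 1.53, which includes 1). The log2 fold change was -0.83 ± 0.46 (SE; edgeR adjusted p = 0.853) without and -0.90 ± 0.30 (0.399) with litter as a block. It shrank to -0.31 ± 0.39 without control replicate 1 and to -0.49 ± 0.39 without Gli3R replicate 3.

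Evx1 measured 13.7, 4.90 and 6.46 CPM in the controls of litters 1, 2 and 3 and 8.68, 6.27 and 5.82 CPM in their Gli3R littermates. Control replicate 1 was the highest library and control replicate 2 the lowest, with all Gli3R libraries between them. The log2 fold change of -0.20 ± 0.36 (SE; edgeR adjusted p = 0.996) became 0.32 ± 0.27 without control replicate 1. Evx1 shares 73 bases of exon with the antisense gene Evx1os, which is also in the table, and reads of that stretch cannot be assigned to a strand here. Evx1os showed the same order in litter 1, with 16.3 CPM in the control and 8.91 CPM in the Gli3R library.

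Nkx1-2 was lower in all 3 litters by modest amounts. Levels were 4.81, 5.95 and 4.05 CPM in the controls of litters 1, 2 and 3 and 4.26, 3.71 and 2.14 CPM in their Gli3R littermates. Only the Gli3R library of litter 1 reached into the range of the controls. The log2 fold change was -0.52 ± 0.30 (SE; edgeR adjusted p = 0.880), and -0.56 ± 0.26 with litter as a block (0.613). It was -0.35 without control replicate 2 and -0.31 without Gli3R replicate 3. GENCODE M21 places 541 exon bases of Gm16764 on the other strand of Nkx1-2, a limit for counts whose strand setting is not given.

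The anterior streak genes Lhx1 and Gsc gave no common direction. Lhx1 measured 4.81, 1.25 and 1.52 CPM in the controls of litters 1, 2 and 3 and 2.32, 2.05 and 3.06 CPM in their Gli3R littermates. It was lower with Gli3R in litter 1 and nominally higher in litters 2 and 3. The log2 fold change was 0.07 ± 0.50 (SE; edgeR adjusted p = 0.996), 0.83 without control replicate 1 and -0.30 without control replicate 2. Gsc was below the expression filter, with 4, 6 and 6 reads in the control and 11, 4 and 0 reads in the Gli3R replicates. Over all reads its ratio of Gli3R to control was 0.816, with a 95% counting interval of 0.376 to 1.76 that includes 1, so a difference was not detectable at this depth.

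Mesp1, the gene behind the Cre driver, differed in direction between litters. In litters 1, 2 and 3 the controls held 25.2, 15.9 and 8.10 CPM, and the Gli3R libraries of those litters 8.99, 11.1 and 14.2 CPM. It was 2.80-fold lower with Gli3R in litter 1 (95% counting interval 2.17 to 3.62) and 1.43-fold lower in litter 2 (1.099 to 1.88). In litter 3 the Gli3R library was higher, with a ratio to the control of 1.76 (1.27 to 2.46). The log2 fold change of -0.51 ± 0.35 (SE; edgeR adjusted p = 0.930) stood at -0.10 without control replicate 1, at -0.84 without control replicate 3 and at 0.051 without litter 1. A difference between the litters was not tested, since each litter had 1 library per group.

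Sp8 and Grsf1 were the 2 members whose groups did not overlap, both lower with Gli3R. Of the 8 members tested this was 1, Grsf1, against 6.33% of all tested genes. Sp8 was below the expression filter, with 16, 14 and 5 reads in control replicates 1, 2 and 3 and 6, 0 and 1 reads in the Gli3R replicates. In CPM these were 2.96, 1.34 and 0.63 against 0.46, 0 and 0.15. Over all reads, 35 against 7, Sp8 was 5.75-fold lower (95% counting interval 2.51 to 15.3). With low genes kept in the fit its log2 fold change was -2.60 ± 0.77 (SE) and did not pass (edgeR adjusted p = 0.179 over 18719 genes).

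Grsf1 was by far the deepest measured member, with 545 to 1143 reads per library. Levels were 130, 99.7 and 102 CPM in the controls of litters 1, 2 and 3 and 88.6, 77.1 and 83.4 CPM in their Gli3R littermates. The within-litter differences were of similar size, 1.46-fold, 1.29-fold and 1.23-fold lower in litters 1, 2 and 3. The log2 fold change was -0.41 ± 0.12 (SE; edgeR adjusted p = 0.402) without and -0.41 ± 0.09 (0.144) with litter as a block. It was below 0 in all 14 alternative fits, between -0.47 and -0.28, and passed in none of them.

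**Figure D3:**
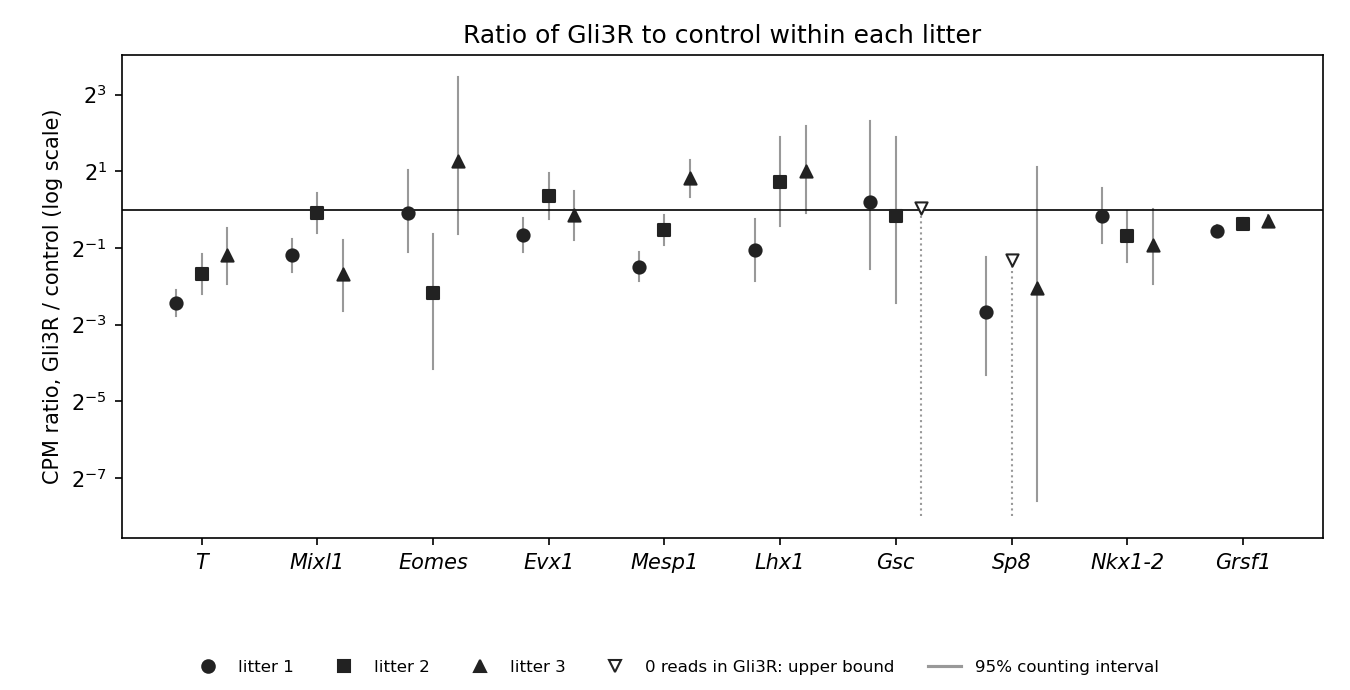
Ratio of Gli3R to control CPM (y axis, log scale) within litters 1, 2 and 3 for each of the 10 genes (x axis); grey lines are exact 95% counting intervals, drawn down to the axis limit where they run lower, and open triangles mark the upper end of the interval where the Gli3R library had 0 reads. T lies below 1 in all litters with intervals that exclude 1, and Mesp1, Lhx1 and Eomes fall on both sides of 1.

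Of the 8 members tested, 7 had a log2 fold change below 0, with a median over the 8 of -0.46, against 51.8% of all tested genes below 0 and a median of -0.01. Without control replicate 1, 6 of the 8 were below 0 and their median was -0.20, and without litter 1, 4 of the 7 then tested were below 0. The members that passed the expression filter are not all members, and no list test was made. T, Mixl1, Sp8, Nkx1-2 and Grsf1, 5 of the 10, were lower with Gli3R in all 3 litters, and 0 of the 10 were higher in all 3. Of the 8 members tested, 4 were lower and 0 higher in all 3, against 15.3% and 15.0% of all tested genes. At least 2-fold lower were 5 members in litter 1 (T, Mixl1, Mesp1, Lhx1 and Sp8), 3 in litter 2 (T, Eomes and Sp8) and 4 in litter 3 (T, Mixl1, Gsc and Sp8). T and Sp8 were thus the 2 members past that fold in every litter. Of the 8 members tested, 4, 2 and 2 were past it in litters 1, 2 and 3. The shares of all tested genes were 3.07%, 2.26% and 2.33%. Gsc had 6 against 0 reads in litter 3 and Sp8 14 against 0 in litter 2 and 5 against 1 in litter 3, too few to fix a fold.

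Control replicate 1 carried high levels of most of these genes. It was at least 2-fold above the mean of control replicates 2 and 3 for 6 of the 10 members. These were T (3.58-fold), Lhx1 (3.48-fold), Sp8 (3.00-fold), Evx1 (2.41-fold), Mixl1 (2.41-fold) and Mesp1 (2.10-fold). Of the 8 members tested, 5 were past 2-fold in control replicate 1, against 3.01% of all tested genes. Grsf1 was 1.28-fold higher there and Eomes 1.58-fold, the latter from 12 reads with a 95% counting interval of 0.673 to 2.95 for the ratio of pooled reads. Nkx1-2 did not share the pattern, with a ratio of 0.963, and Gsc had a ratio of 1.11 from 4 reads. Control replicate 1 was the highest of all 6 libraries for 7 of the 10 members, 6 of the 8 tested and 24.6% of all tested genes. With 1 library against 2 there is no test of this difference, and control replicate 1 was also the shallowest library.

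The Gli3R library of litter 1 was at least 2-fold above the mean of Gli3R replicates 2 and 3 for 3 members. These were Eomes, Gsc and Sp8, all of few reads. Of the 8 members tested this was 1 (Eomes), against 1.44% of all tested genes. That library was also above the mean of the other 2 for T (1.87-fold), Mixl1 (1.64-fold), Nkx1-2 (1.46-fold), Evx1 (1.44-fold) and Grsf1 (1.103-fold). Of the 6 members at least 2-fold higher in control replicate 1, only Sp8 was so here. For Mesp1 it was instead the lowest Gli3R library, at a ratio of 0.709 (0.717 from pooled reads, with a 95% counting interval of 0.562 to 0.910), and for Lhx1 the ratio was 0.910. Control replicate 3 was at least 2-fold below the mean of the other controls for T, Eomes, Mesp1 and Sp8. Of the 8 members tested this was 3, against 2.84% of all tested genes.

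**Figure D4:**
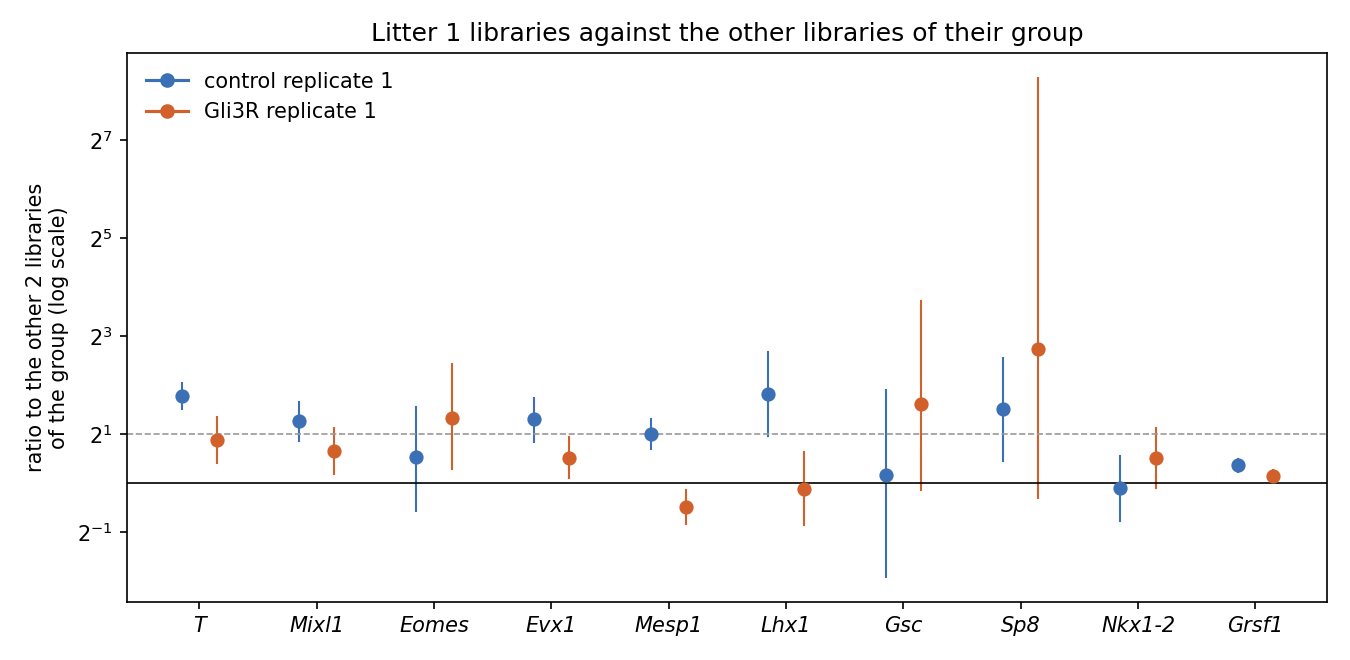
Ratio of replicate 1 to the other 2 libraries of its group, from pooled reads (y axis, log scale; dashed line at 2, bars are exact 95% counting intervals), for each gene (x axis) in the control (blue) and Gli3R (orange) groups. The control points of T, Lhx1, Sp8, Evx1, Mixl1 and Mesp1 lie at or above 2, while the Gli3R point of Mesp1 lies below 1.

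Markers of epiblast, from which the streak forms, and of neural ectoderm, another fate of epiblast, had their highest sum in control replicate 1, as the members did. Of 13 such markers in the list, 7 were tested and all 7 had a log2 fold change below 0, with a median of -1.10. Their summed level was 268, 169 and 144 CPM in the controls of litters 1, 2 and 3 against 144, 134 and 139 CPM in their Gli3R littermates, and was thus 1.72 times the mean of the other controls in control replicate 1. The same ratio for the sum of the 10 members was 1.66, but Grsf1 alone made up most of that sum and sets much of the ratio. It held 130, 99.7 and 102 CPM of the member sums of 245, 156 and 139 CPM in the controls of litters 1, 2 and 3. The ratio for Grsf1 itself was 1.28. No marker of the list was at 0 in all libraries, and 2 of the 13 were at 0 in each of Gli3R replicates 2 and 3. Without a litter term 0 of the 7 passed in edgeR, with 5 at an unadjusted p under 0.05, against 6.86% of all tested genes. DESeq2 called 4 of the 7 lower (Pou5f1, Cdh1, Epcam and Hesx1), against 0.428% of all genes. With the litter block Cdh1, the E-cadherin gene of epithelial cells, fell (controls 7.22, 3.55 and 2.28 CPM, Gli3R littermates 0.54, 0.51 and 0.31 CPM; edgeR adjusted p = 0.0869 without and 0.0327 with the block). The homeobox gene Hesx1 (-2.71 ± 0.55) and Epcam (-1.12 ± 0.29), an epithelial adhesion gene, did not pass in edgeR over all 6 libraries with the low-count filter. Without that filter Pou5f1, Cdh1, Epcam and Hesx1 passed, and with the block and without litter 1 Cdh1 and Hesx1 did, all lower. The shares of all genes called lower in these fits were 0.315% and 0.822%. Without control replicate 1, 5 of the 7 markers had a log2 fold change below 0, with a median of -0.75. The part of such cells in the levels of T and the other streak genes was not tested.

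The summed levels of the endoderm and emerging mesoderm lists were instead lowest in control replicate 1, though single genes such as Gata6 were not. The 11 endoderm markers in the table summed to 94.2 to 156 CPM over the controls and 121 to 177 CPM over the Gli3R libraries. The 19 emerging mesoderm genes summed to 829 to 1038 CPM over the controls and 952 to 1104 CPM over the Gli3R libraries. Red cell genes were uneven, with sums from 192 to 426 CPM over the controls and 190 to 660 CPM over the Gli3R libraries. Of 9 extraembryonic ectoderm genes, which include Eomes and Cdx2, sums lay between 60.1 and 91.6 CPM and the defining gene Elf5 had 0 reads in every library. In each of these 4 lists 0 genes passed in edgeR with or without the litter block. At an unadjusted p under 0.05 without the block stood 0 of 6 endoderm, 8 of 19 emerging mesoderm, 0 of 7 red cell and 2 of 5 extraembryonic ectoderm genes. The share of all tested genes was 6.86%. DESeq2 called Ripply2 lower and Etv2 higher and 0 genes of the other 3 lists, against 0.428% of all genes lower and 0.361% higher. The edgeR fit of 4 libraries, with the block and without litter 1, called 5 emerging mesoderm genes, 2 higher and 3 lower. These were Hand1, Foxc1, Foxc2, Etv2 and Ripply2. It also called Apoa1 higher and Hbb-bh1 lower, against 1.03% of genes higher and 0.822% lower. The genes of smallest unadjusted p were Sox17, Apoa1 and Dab2 for endoderm and Ascl2, Cdx2 and Wnt6 for extraembryonic ectoderm. For emerging mesoderm they were Ripply2, a segmentation gene (-3.31 ± 0.51, SE), Etv2, a gene of blood and vessel progenitors (0.62 ± 0.15), and the forkhead gene Foxf1 (-0.60 ± 0.17).

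Of the signals that induce and maintain the streak, 9 of 14 genes were tested, 7 of the 9 with a log2 fold change below 0 and a median of -0.80. Cfc1, which encodes a Nodal co-receptor, fell from 64.1, 67.5 and 76.1 CPM in the controls of litters 1, 2 and 3 to 43.1, 38.9 and 36.7 CPM in their Gli3R littermates (log2 fold change -0.80 ± 0.11, SE; edgeR adjusted p = 0.0365, and 0.0502 with the litter block). Its groups stood well apart, and control replicate 1 was the lowest control, unlike for T. Gdf1, which encodes a partner ligand of Nodal, stood at -1.07 ± 0.17 (0.0506) and the streak ligand gene Fgf8 at -1.31 ± 0.27 (0.171). Bmp4, a ligand gene of posterior and extraembryonic mesoderm, rose in the edgeR fit with the litter block, from 107, 116 and 154 to 161, 217 and 228 CPM (edgeR adjusted p = 0.245 without and 0.0425 with it). DESeq2 called 4 of the 9 lower (Cfc1, Gdf1, Fgf4 and Fgf8) and Bmp4 higher, against 0.428% and 0.361% of all genes. Without the low-count filter edgeR called Cfc1, Gdf1, Fgf4, Fgf8 and Wnt3a lower and Bmp4 higher. That fit called 0.315% of genes lower and 0.262% higher. Wnt3a, a WNT ligand gene below the filter, had 29 reads over the controls and 0 with Gli3R. With the block and without litter 1, Cfc1, Gdf1 and Fgf8 were called lower and Bmp4 higher, against 0.822% and 1.03% of genes. Nodal itself had 1 read in all 6 libraries.

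Of 16 genes of the streak and downstream of T, 15 were tested, 11 with a log2 fold change below 0 and a median of -0.59. Without a litter term 0 of the 15 passed in edgeR, with 8 at an unadjusted p under 0.05, against 6.86% of all tested genes. Of these 8, Cyp26a1 was higher with Gli3R (log2 fold change 0.32 ± 0.12, SE) and the others were lower. DESeq2 called 0 too. With the litter block Cdx1, a caudal homeobox gene of the posterior embryo, fell, from 47.2, 19.7 and 16.8 CPM in the controls of litters 1, 2 and 3 to 23.0, 6.01 and 5.05 CPM in their Gli3R littermates (edgeR adjusted p = 0.740 without and 0.0327 with the block). The Notch ligand gene Dll1 (-2.18 ± 0.50, SE), Mesp2, the segmentation relative of Mesp1 (-1.47 ± 0.45), and the presomitic gene Msgn1 (-1.91 ± 0.60) did not pass in edgeR over all 6 libraries with the low-count filter. Without that filter Dll1 and Msgn1 passed (edgeR adjusted p = 0.00213 and 0.0336), and with the block and without litter 1 Msgn1, Mesp2, Cdx1, Cdx4 and Dll1 did, all lower. Without litter 1 and with no block, Cdx1, Cdx4 and Dll1 passed and were lower, of 15 tested, and without control replicate 1 alone 0 passed. The shares of all genes called lower in these fits were 0.185% and 0.132%. Of 12 genes of the anterior streak and organizer, 7 were tested, with a median of 0.09. In edgeR over all 6 libraries with the low-count filter 0 passed with or without the block. Without the block 2 had an unadjusted p under 0.05, against 6.86% of all tested genes. DESeq2 called Hhex higher, as did edgeR without the low-count filter (adjusted p = 0.0120) and edgeR with the block and without litter 1. These fits called 0.361%, 0.262% and 1.03% of all genes higher, in that order. The smallest unadjusted p belonged to Hhex (0.88 ± 0.16), Frzb (-0.46 ± 0.19) and Sox17 (-0.35 ± 0.30).

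The gene with the profile most like that of T over the 6 libraries was Tbx6, which encodes a T-box factor of presomitic mesoderm. Likeness was measured as the root mean square difference of log2 CPM, each gene centred on its own mean, among 9331 genes with a mean of at least 5 CPM. The difference from T was 0.29 for Tbx6, 0.44 for Sh3gl3, 0.50 for Fabp7 and Cdx1 and 0.52 for Gna14, against a median of 1.16 over all genes compared. Tbx6 measured 14.1, 5.38 and 3.04 CPM in the controls of litters 1, 2 and 3 and 4.65, 1.66 and 1.38 CPM in their Gli3R littermates, and like T its lowest control lay under its highest Gli3R library. The same 5 genes were nearest when a smaller prior count was used.

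**Figure D5:**
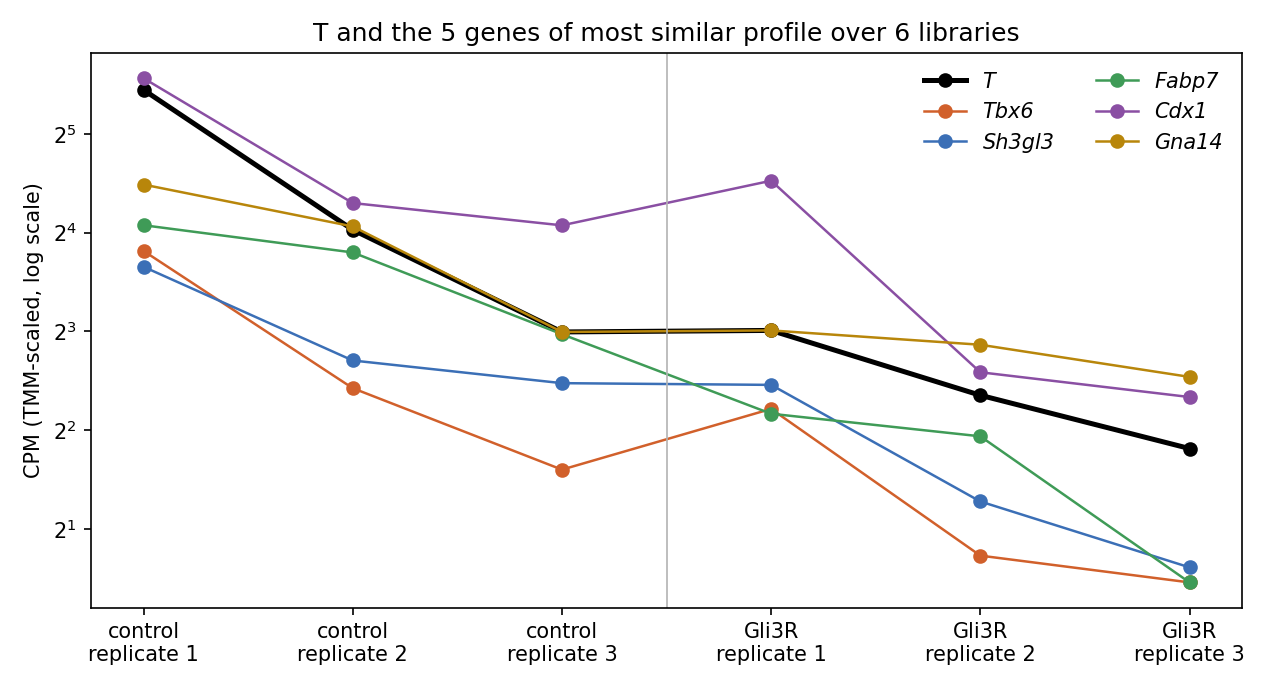
TMM-scaled CPM (y axis, log scale) of T and of the 5 genes whose profile was most like it, in each library (x axis); replicates have no order, and lines only join the points of a gene. All 6 genes are highest in control replicate 1, which follows from choosing the 5 for likeness to T over these libraries.

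Among the tested members the nearest to T was Mixl1, at 0.61, and the farthest Lhx1, at 1.11. The median of 1.16 over all genes compared mostly follows the spread of T itself, since a flat profile also lies at about that distance. A distance near it, as for Lhx1, is therefore no likeness to T. Lhx1, with group means of 2.53 and 2.48 CPM, was also not among the genes compared. Evx1 and Lhx1 were the closest pair of the 28 pairs of tested members, at 0.35, and both were high in control replicate 1. Nkx1-2 and Grsf1 lay at 0.357 and Evx1 and Grsf1 at 0.365. Genes of low spread lie close to each other whatever their shape, so these distances alone show no shared pattern. For Mesp1 the nearest genes were Dapk1, Slc26a2 and Ypel3, at 0.21 to 0.23 against a median of 0.56. For Eomes they were Alpl, Lck and Trp53i11, at 0.28 to 0.36 against a median of 0.78. The SD of log2 CPM over the 6 libraries was 1.27 for T, 0.91 for Mixl1, 0.84 for Eomes and 0.27 for Grsf1, the lowest of the tested members.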

How the data were processed

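The authors deposited raw counts per Entrez gene, 1 column per library. Build mm9 is named in the submitters' processing notes, which also list, without roles, featureCounts, Subread 1.4.6, TopHat2 2.0.14, edgeR and FastQC. No source used here gives the annotation or the strand setting. Libraries were built with Nextera XT from SMARTer Ultra Low cDNA, per the labels' protocols. Of the gene IDs, 96.7% matched RefSeq, and 27 symbols turned into dates were restored by ID.

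Counts were filtered with filterByExpr (minimum count 10), which left 11913 genes and 8 of the 10 members, scaled by TMM and tested in R 4.3.3 with edgeR 4.0.16 (quasi-likelihood, two-sided, Benjamini-Hochberg over all genes tested, threshold 0.05), as checked on simulated data. The fit held no other term; a second fit had litter as a block. The median log2 fold change of all genes lay within 0.1 of 0 under each scaling. Per the labels a replicate number marks a litter; littermates' deviations from the mean of their group had correlations of 0.168 (litter 1), 0.187 (litter 2) and 0.0755 (litter 3), against -0.269 to 0.162 for libraries of different litters. Without the block, p-values measure the spread between litter pools. With it, they measure the spread left once differences between litters are removed.

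The members, the gene lists and the tests were chosen with earlier results of these data known. Named beside the 10 members are list genes that passed in either fit, the 3 of smallest p per list (those of the red cell list are not reported here), and the genes of nearest profile (5 for T, 3 each for Mesp1 and Eomes; prior count 2, mean of at least 5 CPM). Pdgfra, Gata6, Pou5f1, Fgf4, Wnt3a, Hand1, Foxc1, Foxc2, Hbb-bh1, Evx1os, Nodal, Elf5, Cdx4, Cyp26a1 and the genes of exon overlaps were singled out after their values were seen. They lie outside the rule where it did not name them. Alternatives were the block, other scalings, DESeq2 1.42.0, other filters, and leaving out each library or litter 1. Counts over the gene lists without control replicate 1 or litter 1 were added after seeing the data.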

Additional observations from a re-analysis of the deposited data

How the results depend on the processing

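Of the 14 alternative fits, 3 called T lower and the others called 0 members; 0 members were called higher in any. The member count of 1 came with the litter as a replicate block (paired), with that block and without litter 1, and without the filter on low counts. The genes called among all genes (3 higher, 13 lower) numbered 9 higher with the replicate block, 5 higher with library size alone, 43 higher and 51 lower with DESeq2 (3 genes had no adjusted p), 49 and 59 without the filter, 1 higher at 5 CPM or more in 3 libraries, 5 and 22 without litter 1 and 123 and 98 with the block and without litter 1. Leaving out 1 library at a time gave 0 to 2 higher and 0 to 16 lower genes and 0 members; the 0 lower genes came from edgeR with Gli3R replicate 3 left out, where 659 genes had an unadjusted p under 0.05. Log2 fold changes turned sign for Evx1 (0.32 without control replicate 1, 0.10 without litter 1, 0.11 with the block and without litter 1), Mesp1 (0.051 and 0.088 without litter 1, without and with the block), Eomes (0.096 and 0.046 without control or Gli3R replicate 2) and Lhx1 (-0.30, -0.18 and -0.09 without control replicate 2, control replicate 3 or Gli3R replicate 3); the cause was not tested. Over the fits without 1 library the range was -0.97 to 0.096 for Eomes, -0.49 to 0.32 for Evx1 and -0.30 to 0.83 for Lhx1. Eomes was under the filter in 3 fits and Lhx1 and Nkx1-2 in 1. The block changed no other member's call. The 6 members at least 2-fold higher in control replicate 1 numbered 6 under each scaling and with a prior count of 2. Depth limits Gsc, Sp8 and Eomes, with 0 to 27 reads per library.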
